A study of Mus musculus with 3 samples.

Results

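The aminoacyl-tRNA synthetase genes were described in F121-9, a mouse embryonic stem (ES) cell line that the labels give as a hybrid of Cast and 129. They were taken by symbol, as genes with the name of a synthetase and at least 1 transcript typed protein-coding, with Lars2 left out by the rule. The rule took 36 of 55536 genes, of which 21 encode cytosolic enzymes and 15 encode mitochondrial ones. Gars and Kars, which serve both compartments, were counted as cytosolic. The genes Qars and Eprs have no mitochondrial namesake of the same kind: Eprs carries glutamyl and prolyl activities, which are split between Ears2 and Pars2 in mitochondria. Fars2, the mitochondrial phenylalanyl enzyme, was not taken by the rule and was used only where a partner for Farsa and Farsb was needed.

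Each aminoacyl-tRNA synthetase joins 1 amino acid to the tRNAs that carry its anticodons, and so sets the letters of the genetic code. Cytosolic and mitochondrial ribosomes draw on separate sets of charged tRNAs, and most mitochondrial enzymes have a nuclear gene of their own, marked by a 2 at the end of the symbol. In mammals 8 cytosolic enzymes sit in a multi-synthetase complex held by the scaffold proteins Aimp1, Aimp2 and Eef1e1. The transcription factor ATF4 is known to raise many cytosolic synthetase genes when amino acids run short.

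Total RNA was sequenced in 3 libraries that the labels call biological replicates 1, 2 and 3, each from cells at passage 14 and from 400 ng of RNA, with ERCC and SIRV spike-ins. The replicates come from 1 line and form 1 group, with no treatment and no control, so no condition was compared and every p-value refers to the spread of these libraries alone, in which biological and technical parts cannot be told apart. The gene tables held 10425608, 9575697 and 9974967 estimated counts in replicates 1, 2 and 3. Gene levels are given as RSEM-style TPM, a level per transcript length scaled to a common sum in each library, with mean ± SD over n = 3 libraries where a single value stands. The 6 ES cell markers summed to 2121 to 2350 TPM, against 2.92 to 4.17 TPM for 7 fibroblast markers, of which Col3a1, Lum and Dcn were at 0. Primitive endoderm markers summed to 1.94 to 2.87 TPM, mesoderm markers to 4.37 to 7.44 TPM and neural markers to 10.1 to 13.1 TPM. Trophoblast markers summed to 63.5 to 72.2 TPM, nearly all of it from Tfap2c, with Elf5 and Hand1 at 0. Replicate 1 stood apart: 1656 of 13391 genes spread beyond counting noise with all libraries, and 27 of 13489 did so without replicate 1.

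The sequences of the stretches that the results turn on are shown first. ATF4 binds with C/EBP factors to the response element TGATGNAA, where N is any base, and this element was sought on both strands in the RefSeq promoters of GRCm38.p6, which run from 250 bases before to 50 bases after each gene start. Of the 36 synthetase genes 26 were matched by symbol to a promoter in that table, and 5 of them, or 19.2%, held the element, against 4.51% of the 27025 genes in the table and 3.97% of its 32851 promoters. All 5 were cytosolic genes, among 14 cytosolic genes matched, and all 5 were among the 8 matched genes of a list of 12 known ATF4 targets (Aars, Cars, Eprs, Gars, Iars, Lars, Mars, Nars, Sars, Tars, Wars and Yars). That list was drawn from background knowledge, and how far it rests on this same element was not tested. Of that list, Nars, Lars, Wars and Cars had no matched promoter and were not searched. None of the 12 mitochondrial genes matched held the element in this window. The windows are printed 5′ to 3′ on the strand of the gene, with the element in capitals. In Gars, Aars, Tars and Iars the element lies on the opposite strand, so that the capitals read as its reverse complement, and in Yars it lies on the strand of the gene.
Gars, chr6:55037951-55037998, plus strand: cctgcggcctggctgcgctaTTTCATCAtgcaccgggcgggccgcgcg
Aars, chr8:111033710-111033757, plus strand: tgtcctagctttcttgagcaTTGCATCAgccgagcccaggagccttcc
Aars, chr8:111033840-111033869, plus strand: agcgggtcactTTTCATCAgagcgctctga
Tars, chr15:11399659-11399693, minus strand: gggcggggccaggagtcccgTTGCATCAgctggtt
Iars, chr13:49682126-49682155, plus strand: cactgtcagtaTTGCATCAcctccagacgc
Yars, chr4:129189895-129189924, plus strand: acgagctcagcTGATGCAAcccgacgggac
Counted from the RefSeq start used in that table, the element began 112 bases before the start in Aars, 30 bases before it in Gars and 15 bases before it in Tars. It began at base 8 after that start in Iars and at base 4 in Yars, and Aars held a further copy that began at base 10. The starts of GENCODE transcripts can differ from these: Yars-201 starts at 129189760, before the window printed, and Aars-201 at 111033902, after both windows printed. The 5 genes with the element had levels of 162 to 362 TPM with a median of 252 TPM, and the 9 matched cytosolic genes without it had 9.13 to 332 TPM with a median of 181 TPM. A match is a description of letters, and binding was not measured here.

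Kars, the lysyl enzyme, is shown because its transcripts carry alternative coding starts. In human, the form with the additional exon is the mitochondrial enzyme. The capitals mark the start codon of each first coding stretch, read from the GENCODE M21 transcripts on mm10.
Kars-202, chr8:112008207-112008352, minus strand: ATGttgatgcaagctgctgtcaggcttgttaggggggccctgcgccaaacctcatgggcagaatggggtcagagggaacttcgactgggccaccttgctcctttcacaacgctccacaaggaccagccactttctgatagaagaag
Kars-201, chr8:112011210-112011268, minus strand: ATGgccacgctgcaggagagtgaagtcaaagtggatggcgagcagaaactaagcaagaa
The first stretch spans 146 nt and the other 59 nt, and the coding sequences are 1872 nt and 1785 nt in all. For Qars, the glutaminyl enzyme, the stretch below of 49 nt is coding in Qars-203 and is left out of Qars-231, which has 72 nt of another exon and is typed as a target of nonsense-mediated decay.
Qars-203, chr9:108508482-108508530, plus strand: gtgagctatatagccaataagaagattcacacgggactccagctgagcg
The coding sequence of Qars-203 is annotated at 2253 nt and that of Qars-231 at 300 nt.

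All 36 synthetase genes reached at least 1 TPM in every library, against 52.3% of the 21901 genes with a protein-coding transcript. In bulk RNA, a level per cell and the share of cells with the RNA cannot be told apart. Together they held 0.508% ± 0.005 of all TPM. The 21 cytosolic genes summed to 4537, 4635 and 4649 TPM in replicates 1, 2 and 3, against 483, 471 and 468 TPM for the 15 mitochondrial genes. The mitochondrial sum was thus 10.3% of the cytosolic one. The median level was 216 ± 1.77 TPM over the cytosolic genes and 26.8 ± 0.678 TPM over the mitochondrial genes, against 19.6 TPM over the 11464 genes that reached 1 TPM. On the log2(TPM + 1) scale the cytosolic median lay 2.97 ± 0.05 above the mitochondrial one. Of the cytosolic genes 16 stood at or above the 90th percentile of the 11464 expressed genes and 20 at or above the 50th. Of the mitochondrial genes 0 stood above the 90th percentile and 9 above the 50th.

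**Figure D1:**
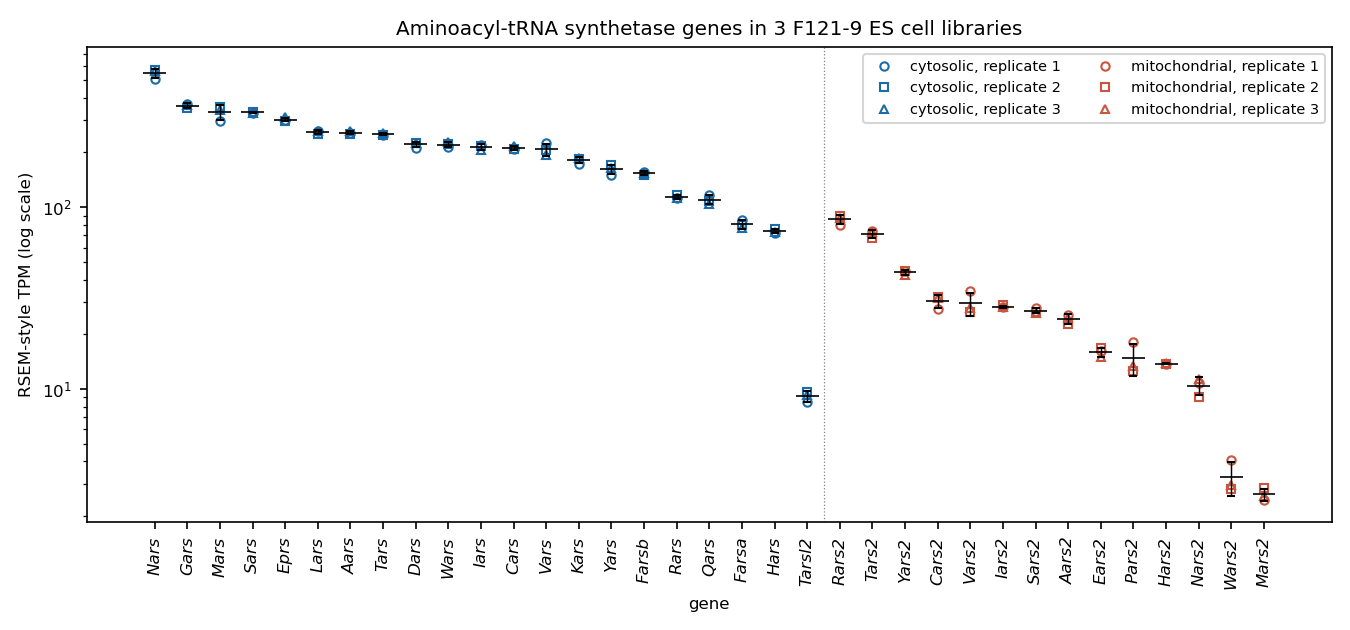
RSEM-style TPM (log axis) of 35 of the 36 synthetase genes, cytosolic genes left of the dotted line and mitochondrial genes right of it, each ordered by mean. Symbols are the 3 libraries, the horizontal line is the mean and the error bar 1 SD; Nars is highest at 547 TPM on average and Mars2 lowest at 2.63 TPM.

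Nars, the asparaginyl enzyme (chr18:64499647-64516652, minus strand, mm10), was the highest synthetase gene with 509.8, 566 and 564 TPM in replicates 1, 2 and 3. Its estimated counts were 9356, 10021 and 10374, and its lowest library stood above the highest library of each other member. Gars, the glycyl enzyme of both compartments (chr6:55038007-55079500, plus strand), followed with 369.7, 351 and 366 TPM. Mars, the methionyl enzyme that charges the initiator tRNA, had 298, 355 and 343 TPM, and Sars, the seryl enzyme, had 331, 336 and 329 TPM. The libraries of Mars overlapped those of both Gars and Sars, so the place of Mars in this order does not hold beyond their spread. Mars-201, of 2939 nt, held 55.5% of the TPM of Mars, and the short protein-coding Mars-203, of 621 nt, held 32.2%. In the kallisto-style table Mars had 224 TPM on average, below Sars at 300 TPM. Eprs, the fused glutamyl and prolyl enzyme, had 301, 298 and 312 TPM, below Sars in every library.

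At the low end of the cytosolic genes stood Tarsl2, a second threonyl enzyme, with 8.44, 9.65 and 9.31 TPM. Tars, the main threonyl enzyme, was higher than Tarsl2 by 29.6, 25.9 and 27.5 times in the 3 libraries. Hars, the histidyl enzyme, had 72.3, 76.1 and 73.2 TPM, and Farsa, which encodes the alpha subunit of the phenylalanyl enzyme, had 85.4, 80.2 and 76.5 TPM. Qars had 117, 108 and 105 TPM, and Rars, the arginyl enzyme, had 112, 117 and 113 TPM, so that these genes overlapped. The phenylalanyl enzyme has equal numbers of both subunits as protein, which was not measured here. At the RNA level Farsb, which encodes the beta subunit, had 157, 149.9 and 155 TPM. These were 1.84, 1.87 and 2.02 times the level of Farsa. The kallisto-style table gave 1.77, 1.84 and 1.86 for the same ratio.

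Among the mitochondrial genes Rars2, the arginyl enzyme, was highest with 79.8, 89.8 and 87.3 TPM. Tars2, the threonyl enzyme, had 74.1, 67.4 and 73.2 TPM, below Rars2 in every library. Yars2, the tyrosyl enzyme, had 44.8, 44.8 and 42.4 TPM, and Cars2, the cysteinyl enzyme, had 27.6, 32.1 and 31.7 TPM. These 4 genes cover a wide range, with Rars2 in overlap with the low cytosolic gene Farsa and Tars2 in overlap with Hars.

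The lowest mitochondrial gene was Mars2, the methionyl enzyme, with 2.47, 2.85 and 2.58 TPM, and its estimated counts of 210, 231 and 216 came from a transcript of 11294 nt. Wars2, the tryptophanyl enzyme, had 4.05, 2.81 and 2.96 TPM from 93, 72 and 77 estimated counts, the smallest counts of any member. Nars2 had 10.8, 9.09 and 11.4 TPM, Hars2 had 13.7, 13.7 and 13.8 TPM, and Pars2, the prolyl enzyme, had 18.2, 12.6 and 13.4 TPM. In the order of all 36 genes, 16 of the 35 neighbouring genes were separate in all libraries, and 19 overlapped with the gene next below them.

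By complex membership, the 8 genes of the multi-synthetase complex had a median of 218 ± 2.74 TPM, and the 13 other cytosolic genes had 214 ± 3.81 TPM. The 12 ATF4 targets, a list drawn from background knowledge, had a median of 258 ± 5.65 TPM and ranged from 162 to 547 TPM, and the 9 cytosolic genes not on that list had a median of 116 ± 2.39 TPM and ranged from 9.13 to 221 TPM. By catalytic class, the 9 cytosolic class I genes had a median of 210.1 TPM and the 11 cytosolic class II genes one of 221 TPM. Among the mitochondrial genes these medians were 27.8 TPM for 8 class I genes and 24.3 TPM for 7 class II genes.

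The proteins that work beside the synthetases were read from a list of 15 genes, which all reached 1 TPM. The scaffold genes of the complex had 115 ± 7.13 TPM for Aimp1, 92.6 ± 0.419 TPM for Aimp2 and 83.2 ± 3.98 TPM for Eef1e1. Qrsl1, Gatb and Gatc, which encode the amidotransferase that makes mitochondrial glutaminyl-tRNA, had 12.7 ± 1.23, 23.8 ± 2.05 and 11.4 ± 0.604 TPM, in the range of the lower mitochondrial synthetases. Trnt1, which adds the CCA end of tRNAs, had 107 ± 6.17 TPM, and Xpot, the tRNA exporter, had 178 ± 12.9 TPM. Pstk and Sepsecs, which convert seryl-tRNA to selenocysteinyl-tRNA, had 40.6 ± 4.60 and 8.10 ± 0.371 TPM.

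The pairs of cytosolic and mitochondrial genes for the same amino acid were compared within each library. Each mitochondrial gene was paired with the main cytosolic gene. In 15 of the 15 pairs of members, and in 17 of 17 with Fars2, the cytosolic gene was higher in every library and the groups of 3 values did not overlap. Tarsl2 was not among these pairs, and it ran the other way against Tars2, with 8.44, 9.65 and 9.31 TPM for Tarsl2 and 74.1, 67.4 and 73.2 TPM for Tars2. These are counts with no test; an exact two-sided sign-flip test of 3 libraries can give no p below 0.25. The median ratio over the 15 pairs was 7.57, and 7 of these pairs were over 10-fold while 4 were under 4-fold.

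**Figure D2:**
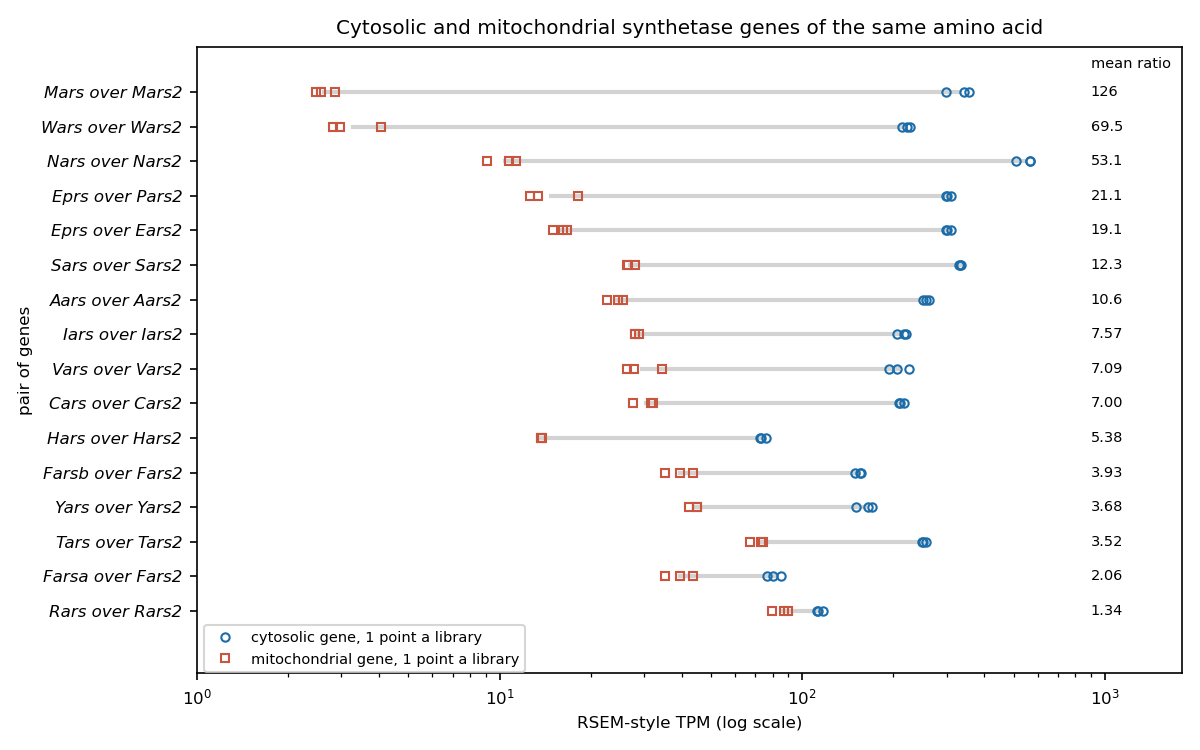
RSEM-style TPM (log axis) of the cytosolic (circles) and mitochondrial (squares) gene of 16 of the 17 pairs, 1 point a library, with a line between the means and the mean ratio at the right. Pairs are ordered by ratio, from 126 for Mars over Mars2 at the top to 1.34 for Rars over Rars2 at the bottom.

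Over all transcripts the widest gap was for methionine, where Mars exceeded Mars2 by 121, 125 and 133 times. Wars exceeded Wars2 by 52.9, 78.9 and 76.8 times, and Nars exceeded Nars2 by 47.4, 62.2 and 49.6 times. The bifunctional Eprs exceeded Pars2 by 16.5, 23.6 and 23.2 times and Ears2, the mitochondrial glutamyl enzyme, by 18.6, 17.8 and 20.8 times. In these pairs the mitochondrial gene was below 20 TPM while the cytosolic gene was above 200 TPM in every library.

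The narrowest gap was for arginine, with 112, 117 and 113 TPM for Rars against 79.8, 89.8 and 87.3 TPM for Rars2, a ratio of 1.40, 1.31 and 1.30. Tars exceeded Tars2 by 3.37, 3.70 and 3.50 times, and Yars exceeded Yars2 by 3.37, 3.79 and 3.88 times. Farsa and Farsb exceeded Fars2, which had 39.4, 35.4 and 43.5 TPM, by 2.06 and 3.93 times on average. In these pairs the mitochondrial gene was among the higher ones.

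Some of these ratios moved with the transcripts counted. For protein-coding transcripts alone the mean ratio of Wars over Wars2 was 264, against 69.5 over all transcripts. It was 129, 288 and 375 in replicates 1, 2 and 3, over coding levels of Wars2 of only 1.63, 0.76 and 0.60 TPM. The kallisto-style table gave Wars2 a mean coding level of 1.89 TPM, so the size of this ratio is uncertain. The mean ratio of Mars over Mars2 was 111 for protein-coding transcripts against 126. For protein-coding transcripts the widest gap was thus that of Wars over Wars2, and not that of Mars over Mars2. The mean ratio of Rars over Rars2 was 1.41 for protein-coding transcripts against 1.34. The ratio of Hars over Hars2 was 5.38 in the RSEM-style table and 2.87 in the kallisto-style one.

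Levels of the cytosolic enzymes were then set beside the use of their amino acid. The codons of 33997 protein-coding transcripts in GENCODE M21 were counted and weighted by transcript TPM, with genes of the mitochondrial genome left out. Leucine was the most used at 9.28% of codons and its enzyme gene Lars had 259 TPM, while tryptophan was least used at 1.03% and Wars had 221 TPM. Nars stood far above the others at 547 TPM for 3.59% asparagine codons. Per percent of codons, the levels of Wars (215 TPM), Nars (152 TPM), Mars (137 TPM) and Cars (118 TPM) were highest, and those of Rars (19.1 TPM), Farsa (22.4 TPM) and Qars (23.9 TPM) were lowest. Across the 20 amino acids, which share the same libraries, Spearman's rho of level and codon share was 0.32 and Pearson's r of the log2 values was 0.22, both weak and given as a description. Eprs entered for both glutamate and proline, and Farsa stood for the phenylalanyl enzyme. Farsb, its other subunit gene, had 154 TPM on average, so the low place of phenylalanine rests on the choice of Farsa.

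**Figure D3:**
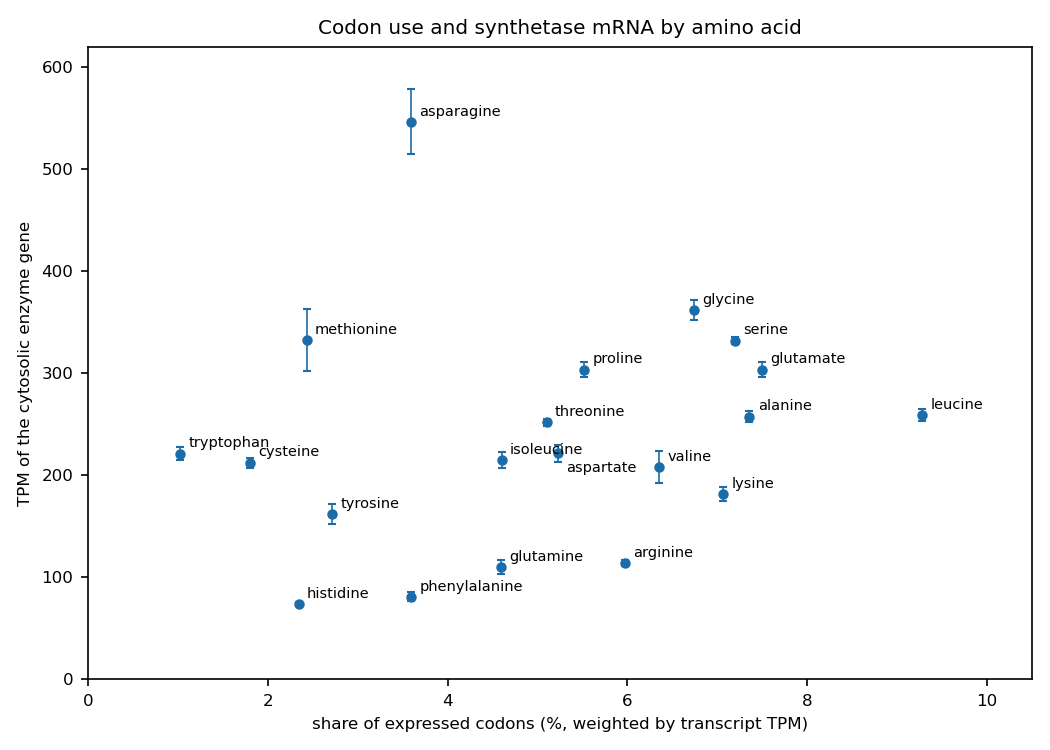
TPM of the cytosolic enzyme gene (mean and SD of 3 libraries) against the share of expressed codons of its amino acid in percent. Asparagine lies at 547 TPM and 3.59% and leucine at 259 TPM and 9.28%, so the most used amino acid does not have the highest enzyme mRNA.

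Most of the synthetase RNA was in transcripts typed protein-coding. The members had 281 annotated transcripts. The median share of a gene's TPM in protein-coding transcripts was 93.2% in the RSEM-style table and 92.9% in the kallisto-style table, against 97.1% in the RSEM-style table over the 11464 expressed genes. It was at or above 90% in 24 of 36 members in the RSEM-style table and in 22 in the kallisto-style table, against 67.9% of the expressed genes. It was below 50% in 3 members in each table, against 6.72% of the expressed genes.

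**Figure D4:**
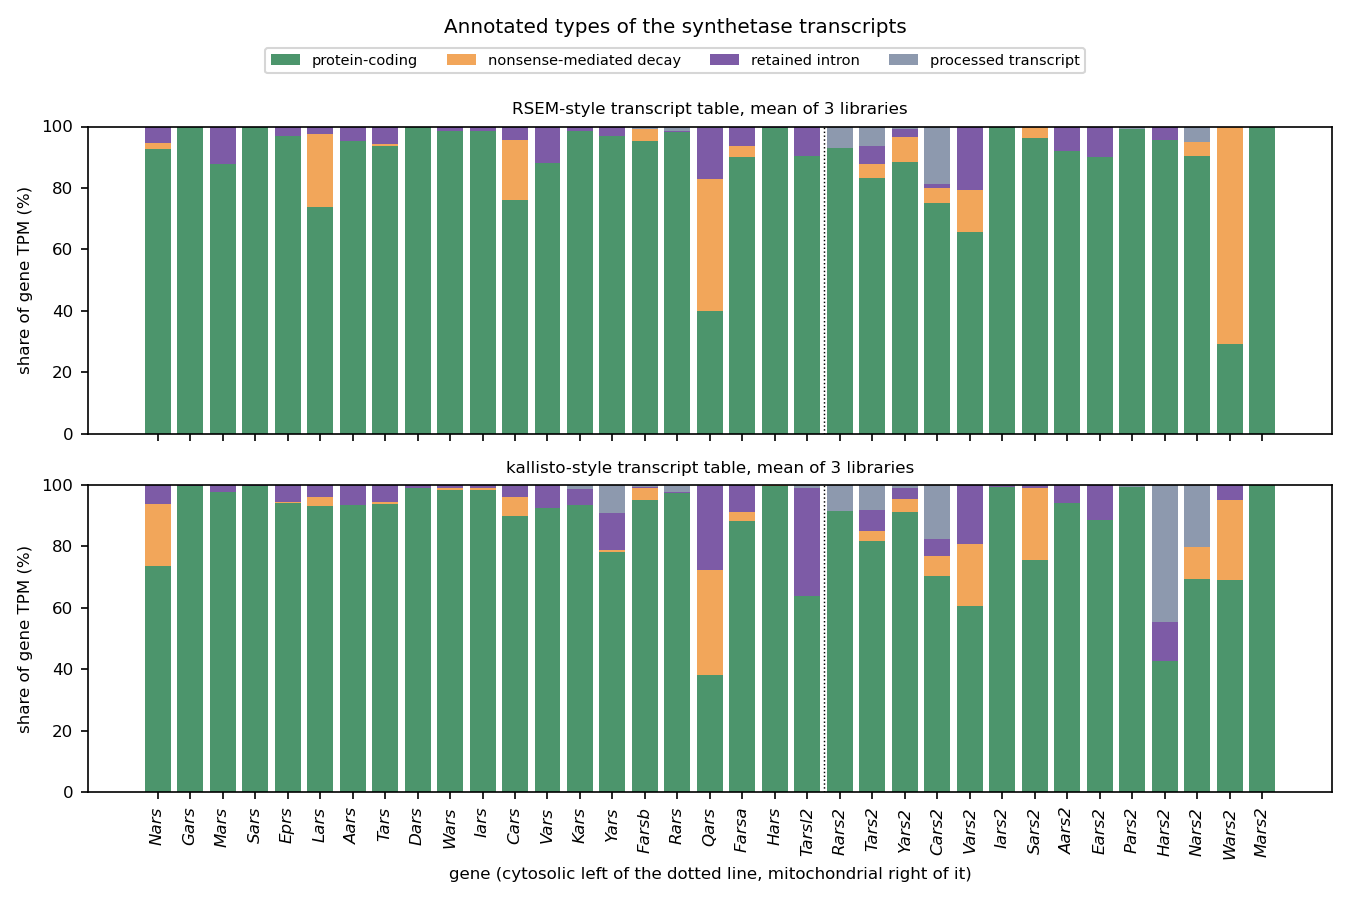
Share of the TPM of 35 of the 36 synthetase genes (percent, mean of 3 libraries) by annotated transcript type, in the RSEM-style table (top) and the kallisto-style table (bottom). Qars is mostly outside the protein-coding type in both tables, Wars2 in the RSEM-style table alone and Hars2 in the kallisto-style table alone.

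Qars had a protein-coding share of 39.8% ± 2.46 in the RSEM-style table and 38.2% ± 3.48 in the kallisto-style one, over 34 annotated transcripts. Its main transcript was Qars-231, the transcript that lacks the 49 nt printed above, with 36.5, 36.0 and 26.9 TPM in the RSEM-style table and 26.9, 22.3 and 20.3 TPM in the kallisto-style one. Qars-203, which has that stretch, had 13.4, 12.6 and 18.5 TPM in the RSEM-style table and 9.84, 9.45 and 14.6 TPM in the kallisto-style one. Both tables thus put the transcript typed for decay above Qars-203 in each library. The protein-coding fragment Qars-233 of 544 nt had 31.1, 20.4 and 9.06 TPM in the RSEM-style table and 9.30, 8.11 and 0 TPM in the kallisto-style one.

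Wars2 had a share of 29.2% ± 10.2 in the RSEM-style table and 69.2% ± 5.63 in the kallisto-style table, and its main transcript changed between them. The RSEM-style table gave 70.8% to Wars2-203, typed for nonsense-mediated decay, and the kallisto-style table gave 64.6% to the coding Wars2-201. At 72 to 93 estimated counts in all, this gene is thinly covered. Vars2, the mitochondrial valyl enzyme, had a share of 65.5% ± 6.50 against 60.7% ± 11.2, in the same order of tables. Lars, the leucyl enzyme, had 73.7% ± 2.28 against 93.3% ± 1.65.

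The main transcript was the same in both tables for 31 of 36 members, or 30 of the 35 with several transcripts. Among the 5 exceptions were Iars, Nars, Hars2 and Wars2. For Iars, the isoleucyl enzyme, Iars-206 held 202, 194 and 195 TPM in the RSEM-style table and 37.9, 28.2 and 31.5 TPM in the kallisto-style table. Iars-201 was listed at 0 in all libraries of the RSEM-style table and had 121, 116 and 115 TPM in the kallisto-style one. These transcripts differ by 30 bases at the 5′ end of Iars-206 and are otherwise identical in sequence, so the coding sequence of 3786 nt is the same.

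For Nars, the RSEM-style table put Nars-213 first at 242, 289 and 260.1 TPM and gave Nars-201 225, 238 and 265 TPM. The kallisto-style table put Nars-201 first at 164, 166 and 186 TPM and gave Nars-213 136, 158 and 144 TPM. The coding sequences differ by 3 nt, with 1677 nt in Nars-213 and 1674 nt in Nars-201, and the transcripts overlapped in the RSEM-style libraries. For Hars2, Hars2-206 held 11.1, 11.8 and 10.4 TPM in the RSEM-style table and 8.50, 7.50 and 7.25 TPM in the kallisto-style table. The processed transcript Hars2-204 was listed at 0 in the RSEM-style table and had 10.4, 9.06 and 8.71 TPM in the kallisto-style table.

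Kars showed both coding starts in each table. Kars-201 had 133, 146 and 143 TPM in the RSEM-style table and 108.2, 108.4 and 109.5 TPM in the kallisto-style table. Kars-202, with the alternative start printed above, had 29.0, 23.6 and 30.2 TPM in the RSEM-style table and 19.1, 16.1 and 17.6 TPM in the kallisto-style one. Its share of the gene was 15.3% ± 2.10 in the RSEM-style table and 12.4% ± 0.819 in the kallisto-style one. Kars-203, which has the same coding sequence as Kars-202, had 8.59, 12.1 and 9.63 TPM in the RSEM-style table. Together these 2 transcripts held 20.8% ± 1.23 of the gene in the RSEM-style table and 16.9% ± 0.454 in the kallisto-style one. Gars had 1 protein-coding transcript, which held 99.8% of its TPM in both tables.

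For each library the RSEM-style value was set against the kallisto-style one as a difference in log2(TPM + 1), and limma was fitted to these differences over all features. A feature was called where its Benjamini-Hochberg adjusted p lay under 0.05 and the mean difference reached 1 in size. Such differences understate the change of low features. At the gene level 0 of the 36 members were called, against 13.1% of 14795 genes. Without the minimum difference 32 members passed, against 77.6% of all genes. They were 31 higher in the RSEM-style table, against 61.3% of all genes, and 1, Hars2, higher in the kallisto-style table, against 16.3%. All genes had a median difference of 0.25 and the members one of 0.35, so the members lay 0.10 above the shift of all genes.

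The largest gene differences were those of Lars, Mars, Qars and Cars, at 0.57, 0.57, 0.56 and 0.51, and that of Hars2 in the other direction at -0.58. Relative to the shift of all genes these were 0.32, 0.32, 0.31, 0.26 and -0.83. Lars had 262, 252 and 263 TPM in the RSEM-style table and 185, 167 and 170.2 TPM in the kallisto-style table, and Hars2 had 13.7, 13.7 and 13.8 TPM against 24.4, 20.1 and 18.9 TPM. The tables did not overlap for either gene.

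At the transcript level 31 of the 127 member transcripts tested were called, against 18.9% of 28903 transcripts. They were 14 higher in the RSEM-style table, against 6.78% of all transcripts, and 17 higher in the kallisto-style table, against 12.1%. The largest differences were -6.88 ± 0.06 (SE) for Iars-201, with an adjusted p of 0.000245 by limma, and 5.03 ± 0.11 for Mars-204, with an adjusted p of 0.000469 by limma. Mars-204, a retained-intron transcript of 467 nt, had 30.6, 27.4 and 37.8 TPM in the RSEM-style table and was listed at 0 in the kallisto-style table. Lars-209, typed for nonsense-mediated decay, had 61.8, 55.6 and 68.9 TPM in the RSEM-style table and 3.74, 2.23 and 6.55 TPM in the kallisto-style one. Nars-212, of the same type, had 4.06, 7.01 and 11.4 TPM in the RSEM-style table and 84.8, 84.5 and 81.6 TPM in the kallisto-style one. The processed transcript Yars-204 was listed at 0 in the RSEM-style table and had 9.59, 13.9 and 11.5 TPM in the kallisto-style one. Of the transcripts named here, Iars-201 is protein-coding and the others are not.

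The spread of the members between libraries was small in scaled counts. In CPM, which are counts scaled to TMM-adjusted library size, the coefficient of variation over the 3 libraries was 0.635% for Iars at the lowest, 4.48% in the median and 9.86% for Tarsl2 at the highest. In TPM it reached 20.7% for Wars2 and 20.4% for Pars2. No member was variable by edgeR's quasi-likelihood dispersion after Benjamini-Hochberg adjustment, against 0.0373% of 13391 genes, and limma-voom also called 0 members. At an unadjusted p under 0.05, 2 members passed by edgeR, against 4.56% of all genes, and 2 by limma-voom, against 4.47%, so both counts were near the background. The lowest edgeR values were those of Nars, Yars, Wars, Dars and Mars, with an adjusted p of 0.987 each.

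Against counting noise, a chi-square test with Benjamini-Hochberg adjustment over all genes called 13 of 36 members, against 12.4% of 13391 genes. These were Nars, Yars, Wars, Mars, Eprs, Tars, Dars, Aars, Kars, Vars, Cars, Lars and Rars2, of which 12 are cytosolic. Genes of many counts pass this test more readily: all 13 were among the 20 members with a mean of at least 1000 estimated counts, where 36.6% of 2546 genes passed. Without replicate 1, 0 of the 36 members passed by this test, against 0.2% of 13489 genes, while 2 did so at an unadjusted p under 0.05, against 7.06%.

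**Figure D5:**
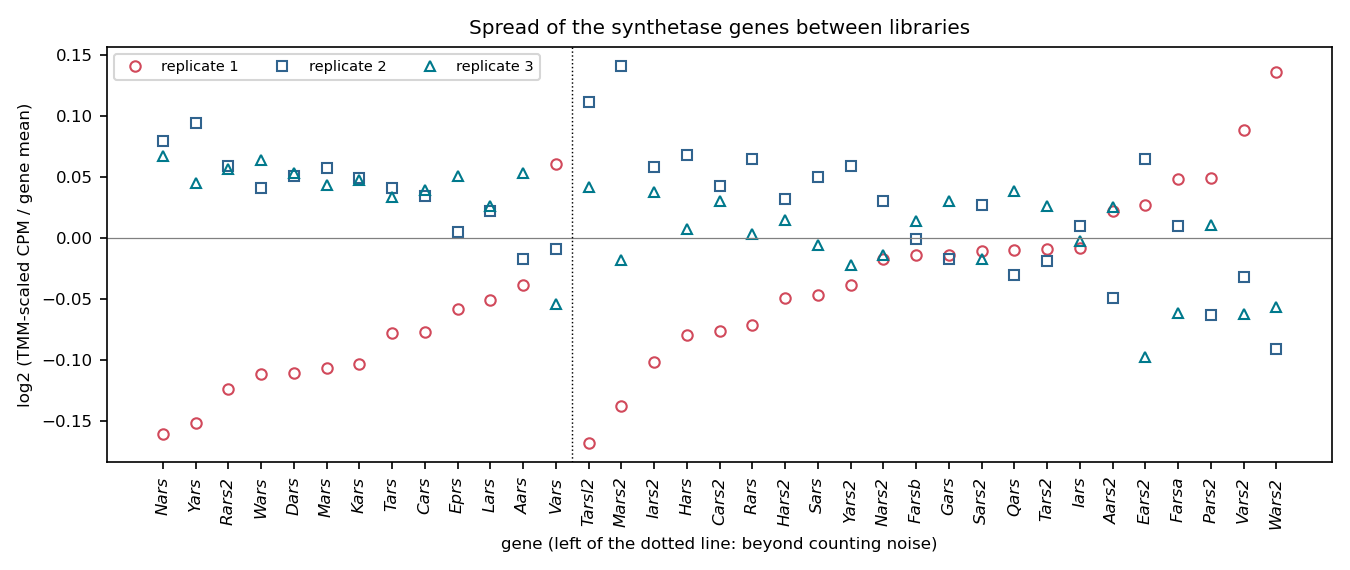
log2 ratio of each library's TMM-scaled CPM to the gene's mean over the 3 libraries, for 35 of the 36 synthetase genes; genes left of the dotted line spread beyond counting noise. Replicate 1 is the lowest library for 12 of those 13 genes and the highest for Vars, against 46.6% lowest and 49.2% highest over all 1656 genes beyond counting noise.

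Replicate 1 was lowest for 12 of these 13 members and highest for Vars. Over all 1656 genes that spread beyond counting noise, it was lowest for 46.6% and highest for 49.2%. Nars had 890.3 CPM in replicate 1 and 1052 and 1043 CPM in replicates 2 and 3, with a chi-square adjusted p of 6.96e-35 over all genes. Yars had 289 CPM in replicate 1 and 343 and 332 CPM in the others, with an adjusted p of 6.36e-10 by the chi-square test. Vars had 553 CPM in replicate 1 and 527 and 511 CPM in the others. The 13 members lay at a median log2 ratio of -0.15 in replicate 1 to the mean of replicates 2 and 3, a small shift. The same median was 0.06 over the 1656 genes beyond counting noise. Over all 36 members replicate 1 was lowest for 25 and highest for 5, against 38.6% lowest and 37.8% highest over all genes tested, and 51.1% lowest and 34.7% highest over genes with a mean of at least 1000 estimated counts.

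Other genes overlap the annotated spans of 20 members, introns included, and for 10 members an overlapping gene had at least 1 TPM. The strand setting of the counting is not known from the labels or notes, so reads in shared stretches of opposite genes cannot be told apart. Hars and Hars2 overlap by 198 nt on opposite strands, and Mars overlaps by 68 nt with Ddit3, a stress-response gene on the other strand that had 107 ± 8.84 TPM. Tarsl2 shares 923 nt of the same strand with Tm2d3, which had 66.5 ± 2.92 TPM and thus stood well above Tarsl2 itself. Aars shares 1326 nt of the same strand with the protein-coding gene Exosc6, which was at 0 TPM. Whether reads of that stretch were counted under Aars was not tested. Cars2 overlaps by 984 nt with Naxd on the other strand, at 35.9 ± 2.28 TPM, close to the level of Cars2.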

How the data were processed

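For each of 3 libraries the authors deposited a gene table and a transcript table in RSEM's columns and a transcript table in kallisto's columns, on mm10 with GENCODE M21 per the file notes; the quantifier, aligner, versions and strand setting were not given in the sources used. The deposited expected counts (estimated counts) are not normalized. The deposited TPM values are scaled to a common sum per library by the authors' quantifier. Rows without a gene ID (26248, with 0.000147% of counts) and 96 ERCC rows (1.89% of counts) entered neither library sizes nor tests. Estimated counts were rounded to whole numbers. Kallisto-style values were summed per gene.

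Spread between libraries was tested with edgeR 4.0.16 in R 4.3.3 (filterByExpr, TMM, intercept-only quasi-likelihood fit, each dispersion against the trended prior) and against Poisson counting noise by chi-square (2 degrees of freedom). Tables were compared with limma 3.58.1 on log2(TPM + 1), for features of at least 1 TPM in either table in every library. All p-values were adjusted over all features tested. Alternatives were other normalizations, filters, pseudocounts and thresholds, the other table, and each replicate left out. Scripts were tested on simulated data. The members and lists were chosen with earlier results of these data known. Named are the 5 highest and 5 lowest genes of each compartment, all called genes, the 5 lowest edgeR p-values, the 5 largest table differences, genes with a changed main transcript and the 5 lowest protein-coding shares. Of these, 1 member is not reported here by name, though the counts, sums and medians over the members include it. The comparison with genes of at least 1000 counts, the protein-coding ratios and the transcripts and overlapping genes named were chosen after values were seen. Counting error alone limits a gene of 72 to 93 counts such as Wars2.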

Additional observations from a re-analysis of the deposited data

How the results depend on the processing

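All 36 members were expressed at thresholds of 0.5 TPM and in the kallisto-style table, and 34 at 5 TPM. The cytosolic minus mitochondrial median (2.97) was 2.92 to 3.01 with a pseudocount of 0.1, kallisto-style values, Lars2, Fars2 or without Gars and Kars. It was 3.28 over protein-coding transcripts alone, an alternative chosen after seeing the data, and 2.95 to 2.99 without 1 replicate each. Gars and Kars lie on either side of the cytosolic median, so leaving both out could not move it. Lars2 and Fars2 both lie above the mitochondrial median, so adding either gave the same 2.95. The 17 pairs, which leave out Tarsl2 against Tars2, kept their direction under the kallisto-style table, protein-coding transcripts and each replicate left out. Variable members were 0 under each alternative run. Members beyond counting noise were 0 without replicate 1 (0.2% of all genes tested), 13 without replicate 2 (10.8%) and 11 without replicate 3 (10.9%), 10 with no filter (6.56%) and 16 in kallisto-style counts (17.6%). The kallisto-style gene counts summed to 18798648, 17352773 and 18084618 in replicates 1, 2 and 3, above the RSEM-style ones. Since genes of many counts pass more readily, the numbers from these tables are not at like depth. Members differing between gene tables were 32 with no minimum difference (77.6% of all genes) and 0 with each replicate left out. Member transcripts differing were 92 of 127 with no minimum difference (61.6% of all transcripts tested), 35 of 127 with a pseudocount of 0.1 (19.5%), 27 of 259 with no filter (5.46%) and 28 to 33 with a replicate left out (16.3% to 17.3%). The same main transcript was found in 31 to 32 members with a replicate left out and in 33 by estimated count. The median protein-coding share (93.2%) was 92.9% in the kallisto-style table and 93.4% to 93.7% with a replicate left out. The median member level (97.9 TPM) was 72.2 TPM in the kallisto-style table and 97.3 to 98.8 TPM with a replicate left out. The cause of these shifts was not tested. No replicate number pairs samples across groups, since the libraries form 1 group. Depth limits Wars2 and Pars2 most, at 80.7 and 189 estimated counts on average.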

Other observations

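Lars2, the mitochondrial leucyl enzyme gene that the rule leaves out, had 230.4, 556 and 512 TPM in replicates 1, 2 and 3 of the RSEM-style table and 529.7, 1228 and 1156 TPM in the kallisto-style table. It was lowest in replicate 1 in both tables. Each of its RSEM-style values stood above those of the 15 mitochondrial members. The mean was 433 ± 176 TPM, and how much of this signal comes from Lars2 mRNA was not tested.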
